A study of Saccharomyces cerevisiae with 10 samples.

Results

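BSC1 (YDL037C) and PRM7 (YDL039C) are neighbouring genes on chromosome IV of the budding yeast Saccharomyces cerevisiae, and are 2 of the 6059 genes in the deposited count table. They were chosen by symbol, for their low level in the strain Z100 at 30 °C, which is low beside the strain XH7 at that temperature. Every comparison of the pair that holds libraries of either strain at 30 °C is therefore a description here, with no test, heat shock in XH7 included. Tests of the pair are given for the strains at 50 °C alone.

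The study measured messenger RNA by sequencing in Z100, labelled the adaptive strain and evolved under modest thermal stress, and in its control strain XH7. There were 4 groups: Z100 after 1 h of heat shock at 50 °C (n = 3), XH7 after the same heat shock (n = 2), Z100 at 30 °C (n = 3) and XH7 at 30 °C (n = 2). Z100 is 1 strain, the labels name no other genotype or agent for either strain, and the protocol also mentions an ice-water mixture for cultures without heat shock. Nothing says that replicates were separate cultures, so p-values reflect variation among the sequenced libraries alone, possibly technical. The libraries held 51901045 to 81442848 counts each.

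Both genes encode proteins rich in serine and threonine, a composition typical of cell wall and cell surface proteins in yeast. BSC1 takes its name from bypass of stop codon, a set of open reading frames that continue in frame beyond a stop codon and can be extended by readthrough. PRM7 takes its name from the pheromone-regulated membrane proteins, genes found among those induced by mating pheromone, and elements for the transcription factor Gcn4, an activator of amino acid synthesis genes, have been described in its promoter. In strains of the W303 background the interval is known to be 1 continuous reading frame, called IMI1, which has been linked to maintenance of mitochondrial DNA and to glutathione level.

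In the R64 reference genome, the coding regions lie on the minus strand, BSC1 at chromosome IV 384601 to 385587 (987 bp) and PRM7 at 381985 to 384081 (2097 bp). BSC1 is thus upstream of PRM7 in the direction of transcription, with 519 bp between them. No other annotated gene of the table lies between them, and the older name YDL038C is a synonym of PRM7. The 519 bp are a multiple of 3, so that PRM7 is in the frame of BSC1, and the 1201 codons from the start of BSC1 to the end of PRM7 hold 2 stop codons, that of BSC1 (codon 329) and that of PRM7. The start codon of PRM7 is codon 503 of this frame. The junctions at both places are printed because they show this arrangement, 5′ to 3′ on the coding strand, with the stop codon of BSC1 and the start codon of PRM7 in capitals (RefSeq, R64, minus strand, chrIV:384571-384633 and chrIV:384052-384111).
BSC1 stop: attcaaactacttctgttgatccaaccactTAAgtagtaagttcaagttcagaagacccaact
PRM7 start: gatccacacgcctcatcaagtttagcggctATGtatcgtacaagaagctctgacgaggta

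**Figure D1:**
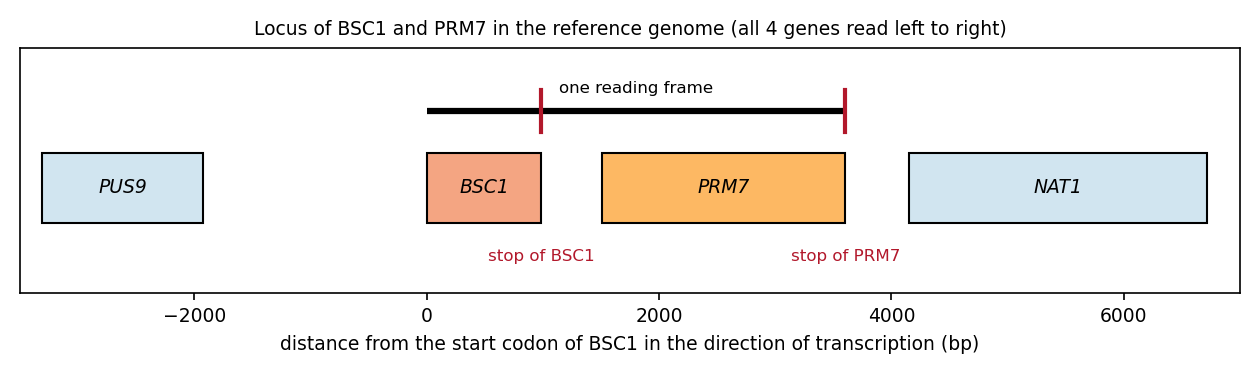
Map of the reference locus to scale, with distance from the start codon of BSC1 in bp along the direction of transcription. Boxes are coding regions, the black bar is the reading frame of 1201 codons and the red marks are its 2 stop codons, 1 at the end of BSC1 and 1 at the end of PRM7.

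Each part of the frame was rich in serine and threonine on average. Serine and threonine make up 50.0% of the residues of BSC1, 53.2% of the stretch of 173 codons between the genes and 44.8% of PRM7. The median over 5673 nuclear proteins of at least 100 residues was 13.8%, and 3 of them had a larger share than BSC1 and 7 a larger share than PRM7. The first 156 residues of BSC1 matched the cell surface flocculin FLO11 at 75% identity (residues 53 to 208 of FLO11, BLAST), and with stretches of low complexity masked no further protein match to either gene had an E-value under 1e-05. At the DNA level, without such masking, BSC1 matched 6 genes under the same E-value. By BLAST bit score these were FLO11 (269, 74.5% identity over 436 bases), DAN4 (122), WSC3 (86.9), SCW11 and WSC2 (74.3 each) and PRM7 (67.1). The match of BSC1 and PRM7, over 183 bases at 68.9% identity, was thus the weakest of the 6, and PRM7 matched BSC1 alone.

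Upstream of BSC1, 1925 bp separate it from PUS9, the next gene, which reads in the same direction. The window of 250 bases before and 50 after the first base of the BSC1 start codon is shown because it spans the annotated start of BSC1 (RefSeq, R64, minus strand, chrIV:385538-385837). Whether it acts as a promoter of either gene was not tested. Capitals mark the start codon and the only match to a searched motif.
BSC1 upstream: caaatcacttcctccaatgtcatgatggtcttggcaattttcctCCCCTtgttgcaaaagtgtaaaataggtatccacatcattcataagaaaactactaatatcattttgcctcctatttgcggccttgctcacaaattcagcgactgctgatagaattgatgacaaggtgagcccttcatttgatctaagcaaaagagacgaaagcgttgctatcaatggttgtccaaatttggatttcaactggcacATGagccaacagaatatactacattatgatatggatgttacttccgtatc

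The 4 motifs searched on both strands were TGACTCA for Gcn4, TGAAACA for the pheromone response factor Ste12, AGGGG for the general stress factors Msn2 and Msn4, and TTCNNGAA for the heat shock factor Hsf1. The match in the window, on the opposite strand, is to AGGGG, 206 bases before the start codon, a motif present in 21.6% of 6001 gene windows of this length. TGACTCA was in 2.73%, TGAAACA in 7.50% and TTCNNGAA in 12.9% of them, and in neither the BSC1 nor the PRM7 window. In the 1000 bases before the start codon, BSC1 had 3 matches to AGGGG (motif in 55% of 5996 windows) and 1 to TTCNNGAA (38.9%). The same length before PRM7, which runs back into the coding region of BSC1, held 1 TGACTCA 697 bases before the start codon (motif in 7.92% of windows) and 1 TTCNNGAA, and no AGGGG or TGAAACA.

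Levels are given first as the deposited FPKM, which are counts scaled by gene length and by library total and so can be compared between genes. After heat shock, BSC1 had 1.12, 0.804 and 0.707 FPKM in the Z100 libraries, against 3.25 and 4.75 FPKM in the XH7 libraries. At 30 °C it had 6.11, 8.70 and 4.42 FPKM in Z100, against 90.8 and 108 FPKM in XH7. PRM7, the more abundant of the 2 per length, had 3.72, 2.35 and 1.77 FPKM in Z100 at 50 °C, against 12.4 and 18.3 FPKM in XH7 at 50 °C. At 30 °C PRM7 had 22.6, 33.5 and 18.2 FPKM in Z100, against 255 and 299 FPKM in XH7.

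The highest level of both genes was thus in XH7 at 30 °C and the lowest in Z100 at 50 °C, and within either temperature the strains did not overlap. The levels between these ends, Z100 at 30 °C and XH7 at 50 °C, overlapped in both genes and are not tested. In BSC1 they averaged 4.00 ± 1.06 FPKM in XH7 at 50 °C (SD, n = 2) and 6.41 ± 2.16 FPKM in Z100 at 30 °C (SD, n = 3). In PRM7 they averaged 15.4 ± 4.18 FPKM in XH7 at 50 °C and 24.8 ± 7.89 FPKM in Z100 at 30 °C. FPKM do not correct for the makeup of libraries. In CPM after TMM scaling, explained below, these groups lay closer. BSC1 averaged 4.40 CPM in XH7 at 50 °C and 5.44 CPM in Z100 at 30 °C, and PRM7 35.9 and 44.6 CPM, in this order. The end groups averaged 0.879 ± 0.219 FPKM (Z100 at 50 °C) and 99.3 ± 12.0 FPKM (XH7 at 30 °C) in BSC1, and 2.61 ± 0.999 and 277 ± 30.9 FPKM, in this order, in PRM7. In RNA from whole cultures, fewer cells that express a gene and less of its RNA per cell cannot be told apart.

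**Figure D2:**
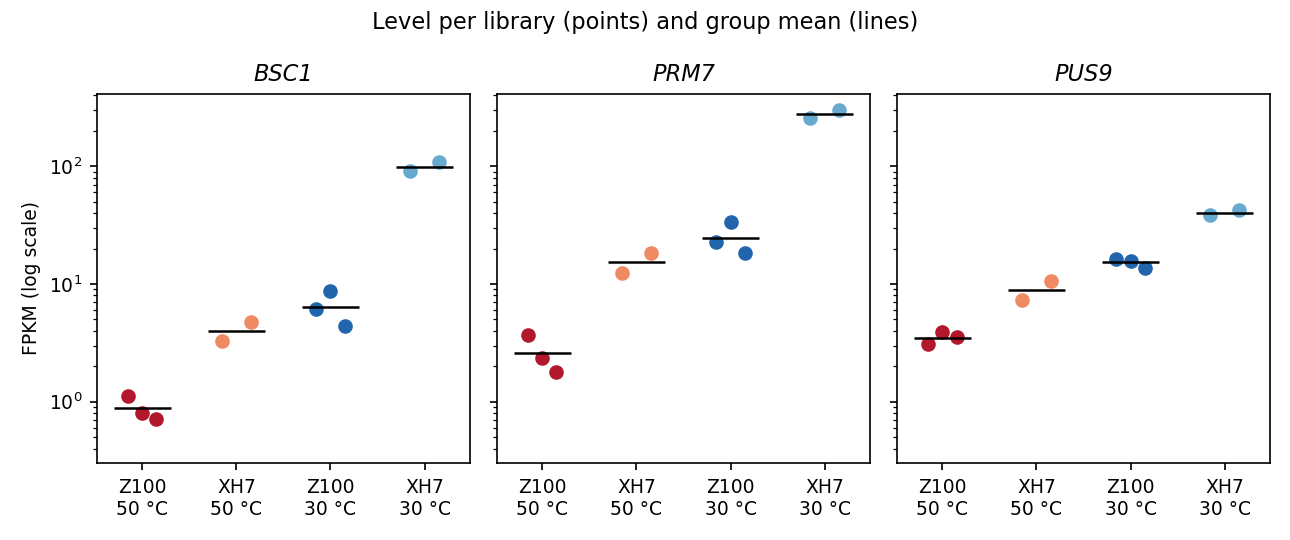
Deposited FPKM of BSC1, PRM7 and their neighbour PUS9 (log axis) in each library, as points by strain and temperature, with the group mean as a line. The Z100 libraries at 50 °C stand lowest, at up to 1.12 FPKM in BSC1 and 3.72 FPKM in PRM7, and the 2 XH7 libraries at 30 °C stand above all others, from 90.8 FPKM in BSC1 and 255 FPKM in PRM7.

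Set among all genes of the same library, PRM7 was above 32.9% to 55.3% of genes in Z100 at 30 °C, and above 90.7% and 91.8% of genes in XH7 at 30 °C. BSC1 was above 9.09% to 19.6% of genes in Z100 at 30 °C and above 76.1% and 78.0% in XH7 at 30 °C. After heat shock, PRM7 stood above 8.81% to 18.9% of genes in Z100 and above 38.3% and 40.3% in XH7. BSC1 stood above 3.78% to 7.0% of genes in Z100 and 12.6% and 13.2% in XH7. In Z100 at 50 °C, 88, 63 and 52 reads were counted on BSC1, its lowest counts in the series, and 618, 391 and 277 on PRM7. At these depths neither gene was at 0 in any library.

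The 2 genes kept the same order of libraries within each group. In Z100 at 30 °C replicate 2 was highest and replicate 3 lowest in both genes. In Z100 at 50 °C replicate 1 was highest and replicate 3 lowest in both. Over the 10 libraries, log2 CPM of BSC1 and PRM7 (CPM, counts scaled to a common library total after TMM normalisation, a correction for differences in the makeup of libraries) had a Pearson r of 0.993. PRM7 was the gene most like BSC1, and BSC1 the gene most like PRM7, among the 5821 genes that averaged 1 CPM or more. The libraries share strain and temperature, and they include those at 30 °C from which both genes were chosen for the same low level. The value and both ranks are therefore a description, with no p.

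The next genes most like BSC1 were ISW1 (r = 0.982), a chromatin remodeller, RIF2 (0.980), a telomere-length regulator, PUS9 (0.970), the next gene on the chromosome, and MAG2 (0.969). For PRM7 they were PUS9 (0.981), ARG81 (0.978), a regulator of arginine genes, SPA2 (0.973), a component of the polarisome, and RIF2 (0.973). Their log2 fold change between Z100 and XH7 at 30 °C ran from -1.27 to -0.53, against -3.79 in BSC1 and -3.32 in PRM7. The pair was chosen from that comparison. At 50 °C the same genes ran from -1.13 to -0.28, against -1.93 in BSC1 and -2.28 in PRM7. Over the same 10 libraries, Spearman's rho also put PRM7 and BSC1 at the top of each other's lists (0.988), while the rest of its first 5, some of them tied, were genes other than those just named for that member.

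Per length, BSC1, which is first in the direction of transcription, was at a smaller level than PRM7 in every library. Coverage along the locus in these poly(A)-selected libraries was not examined. The ratio of BSC1 to PRM7 FPKM was 0.303, 0.342 and 0.399 in Z100 at 50 °C, against 0.262 and 0.259 in XH7 at 50 °C. At 30 °C it was 0.270, 0.260 and 0.243 in Z100, against 0.356 and 0.360 in XH7. After heat shock the ratio was higher in Z100 than in XH7, by 0.41 on the log2 scale, with an exact two-sided permutation p of 0.2 (n = 3 and 2), the smallest that this design allows. With heat shock in XH7 it was lower by a log2 difference of -0.46, which is not tested. Of all windows of 50, 100 and 150 bases in BSC1, 85.6%, 90.4% and 95.8% occurred once in the genome, against 97.9%, 100% and 100% in PRM7. The part of these repeats in the ratio was not tested.

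With heat shock in XH7, the response of the control strain, both genes were at lower levels. In CPM after TMM scaling, BSC1 was at 4.18 and 4.62 CPM at 50 °C, against 72.5 and 77.5 CPM at 30 °C. Its log2 fold change was -4.09 ± 0.42 (SE), a level 17.0-fold lower, from edgeR's model of all 4 groups. PRM7 was at 33.9 and 37.9 CPM at 50 °C, against 433 and 457 CPM at 30 °C. Its log2 fold change was -3.63 ± 0.47, a level 12.4-fold lower. The groups do not overlap and their libraries lie close together, with an SD of log2 CPM of at most 0.112 in either gene.

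Many genes changed with heat in XH7: 63.3% of the 6015 genes tested were called at an adjusted p under 0.05 in edgeR's quasi-likelihood test with Benjamini-Hochberg adjustment, 32% as lower and 31.3% as higher. The pair is not tested in this comparison, since it shares the XH7 libraries at 30 °C with the choice of the genes. By size, 3.34% of genes had a lower fold change than BSC1 and 4.61% than PRM7. Over 20 alternatives the log2 fold change lay between -4.63 and -4.02 in BSC1 and between -4.18 and -3.55 in PRM7. Fold changes with heat are relative to the average gene and say nothing of the total RNA per cell.

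The comparison of the strains at 50 °C asked how they differ after heat shock, in libraries that the choice of the genes did not name. Both were lower in Z100. BSC1 was at 1.64, 0.946 and 0.888 CPM in Z100, against 4.18 and 4.62 CPM in XH7. Its log2 fold change was -1.93 ± 0.35, a level 3.81-fold lower in Z100 (95% confidence interval of the log2 value -2.72 to -1.14, adjusted p = 0.0139, edgeR). PRM7 was at 11.5, 5.87 and 4.73 CPM in Z100, against 33.9 and 37.9 CPM in XH7. Its log2 fold change was -2.28 ± 0.39, a level 4.87-fold lower (-3.15 to -1.42, adjusted p = 0.0113, edgeR). In both genes every Z100 library lay under both XH7 libraries.

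At 50 °C, 8.96% of genes were called between strains and 4.94% as lower and 4.02% as higher in Z100. Among the 6015 genes, PRM7 had the 15th and BSC1 the 31st lowest fold change. The calls rest on a spread estimated over all 4 groups. In a fit of the 50 °C libraries alone, with log2 fold changes of -1.95 in BSC1 and -2.31 in PRM7, both calls ended (adjusted p = 0.123 and 0.0904, edgeR), and 4 genes in all were called. Without Z100 50 °C replicate 3, BSC1 had an adjusted p of 0.0541 (edgeR, log2 fold change -1.77).

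Between strains at 30 °C, the comparison from which the genes were chosen, BSC1 was at 4.77, 8.0 and 3.55 CPM in Z100, against 72.5 and 77.5 CPM in XH7. PRM7 was at 37.5, 65.4 and 31.0 CPM in Z100, against 433 and 457 CPM in XH7. The log2 fold change was -3.79 ± 0.35 in BSC1 and -3.32 ± 0.39 in PRM7, the 5th and the 8th lowest of all genes tested. These ranks describe the choice and are not tested. With heat in Z100 the log2 fold change was -2.23 ± 0.33 in BSC1 and -2.60 ± 0.37 in PRM7, and 12.0% and 9.49% of genes, in this order, had a lower one. In that comparison 69.9% of all genes were called, 36.2% as lower and 33.8% as higher, and nothing is read from this for the pair. The heat response of Z100 minus that of XH7 was 1.86 ± 0.50 in BSC1 and 1.03 ± 0.55 in PRM7 on the log2 scale, the same quantity as the strain difference at 50 °C minus that at 30 °C. It uses the libraries at 30 °C and was not tested, and in PRM7 it was 0.56 without Z100 50 °C replicate 1.

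**Figure D3:**
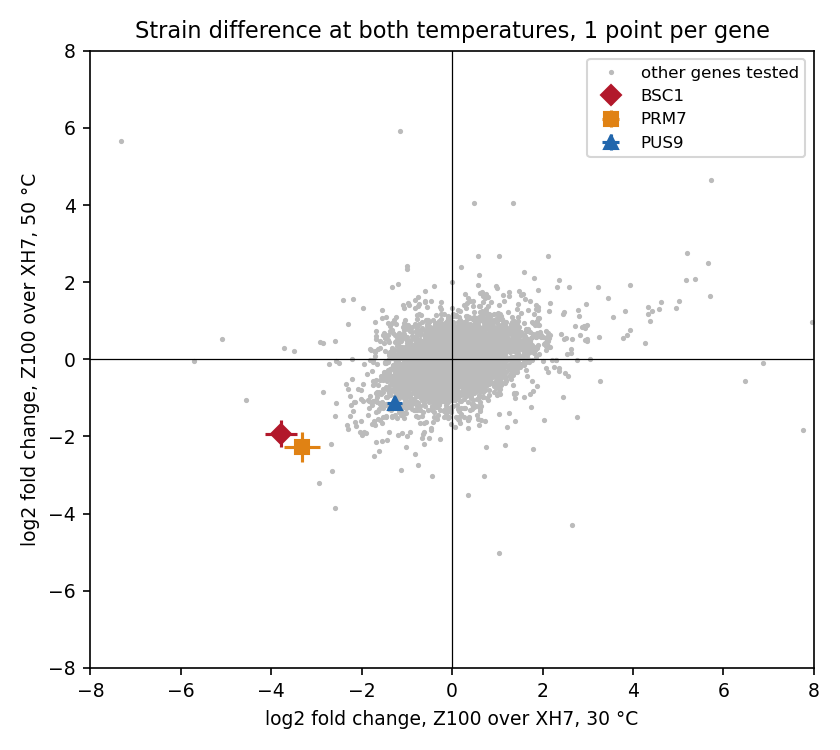
Log2 fold change of Z100 over XH7 at 30 °C (horizontal) and at 50 °C (vertical) for each gene tested, with SE bars for BSC1, PRM7 and PUS9. BSC1 (-3.79 and -1.93), PRM7 (-3.32 and -2.28) and PUS9 (-1.27 and -1.13) lie at the lower left, where a gene is lower in Z100 at both temperatures.

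Among the genes around the pair, PUS9 (YDL036C, chromosome IV 387513 to 388901) was also at a lower level in Z100. It encodes a mitochondrial tRNA pseudouridine synthase and lies upstream of BSC1 on the same strand. Whether its level is linked to that of the pair was not tested. PUS9 had 6.31, 6.47 and 6.23 CPM in Z100 at 50 °C, against 13.3 and 14.5 CPM in XH7. At 30 °C it had 17.8, 20.3 and 15.6 CPM in Z100, against 43.0 and 43.2 CPM in XH7. The strains did not overlap at either temperature. PUS9 was lower in Z100, with a log2 fold change of -1.13 ± 0.16 at 50 °C (adjusted p = 0.00567, edgeR) and -1.27 ± 0.16 at 30 °C (adjusted p = 0.000872, edgeR). It also fell with heat in XH7 (-1.63 ± 0.18, adjusted p = 3.65e-05, edgeR). Its 30 °C call held in all 20 alternatives, and its 50 °C call ended in 1, the fit of the 50 °C libraries alone (adjusted p = 0.116, edgeR).

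On the other side, NAT1, a subunit of the N-terminal acetyltransferase NatA and the next gene downstream of PRM7, had a log2 fold change between strains of -0.081 ± 0.19 at 50 °C (adjusted p = 0.827, edgeR) and -0.53 ± 0.19 at 30 °C (adjusted p = 0.057, edgeR, and under 0.05 in 3 of 20 alternatives). SIR2, a histone deacetylase of silencing and the gene after NAT1, was at -0.30 ± 0.19 at 50 °C (adjusted p = 0.343, edgeR) and -0.42 ± 0.19 at 30 °C (adjusted p = 0.114, edgeR, and under 0.05 in 2 of 20 alternatives). GPR1, the glucose-sensing receptor beyond PUS9, was at -0.18 ± 0.20 at 50 °C (adjusted p = 0.605, edgeR) and was lower in Z100 at 30 °C (-0.91 ± 0.20, adjusted p = 0.0098, edgeR), a call that ended without XH7 30 °C replicate 2 (adjusted p = 0.111). With heat in XH7, NAT1 (-1.24 ± 0.21, adjusted p = 0.000468, edgeR) and SIR2 (-2.27 ± 0.22, adjusted p = 1.4e-05, edgeR) fell. GPR1 rose (1.01 ± 0.22, adjusted p = 0.00243, edgeR), a call that ended without TMM factors (adjusted p = 0.156) and with limma on FPKM (adjusted p = 0.185).

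Of the 10 tested genes on each side of the pair, 2 of 20 were called between strains at 50 °C, near the share of all genes (8.96%, with 4.94% lower and 4.02% higher). Both were lower in Z100, namely PUS9 and the cell wall glucan synthesis gene KNH1, the 10th gene away (-1.36 ± 0.34, adjusted p = 0.0379, edgeR, a call that ended in 11 of 20 alternatives, with a log2 fold change of -0.66 without XH7 50 °C replicate 1). At 30 °C 2 were higher and 4 lower, where 28.4% of all genes were called, 14.1% as lower and 14.3% as higher. The median log2 fold change of the 20 genes was -0.018 at 50 °C and -0.25 at 30 °C, over all genes -0.0055 at 50 °C and -0.080 at 30 °C. With heat in XH7 5 of the 20 rose and 8 fell, against 31.3% and 32% of all genes. BSC1 and PRM7 had lower strain fold changes than each of the 20 at both temperatures. At 30 °C this describes the choice of the genes.

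**Figure D4:**
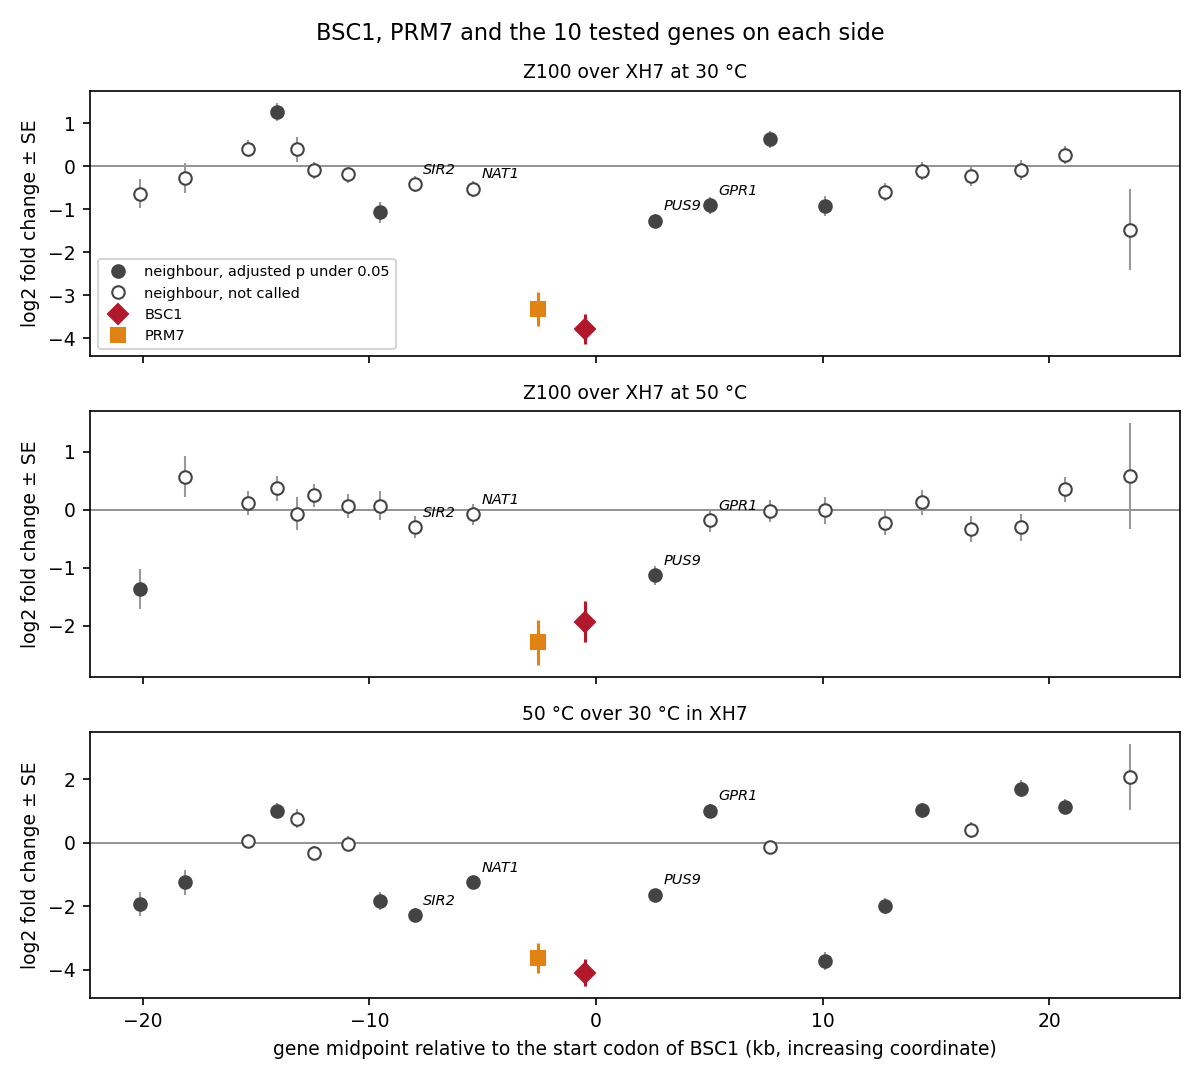
Log2 fold change with SE of BSC1, PRM7 and the 10 tested genes on each side, by distance of the gene midpoint from the BSC1 start codon in kb. Filled points are neighbours called at an adjusted p under 0.05; in both strain comparisons BSC1 and PRM7 lie under all neighbours, and PUS9, at -1.27 and -1.13, is the only neighbour of the 20 called between strains at both temperatures.

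The pair was lower in Z100 at 50 °C, where 8.96% of all genes were called, 4.94% as lower and 4.02% as higher. The other members of the families that give the genes their names were not called, but they are too few to be told apart from that share. Of the other PRM genes, 8 of 9 were analysed and 0 were called (edgeR, 1 at an unadjusted p under 0.05, and 0 by DESeq2 or limma-voom), with a median log2 fold change of -0.047. Of the other BSC genes, 4 of 5 were analysed and 0 were called (edgeR, 1 at an unadjusted p under 0.05, 1 by DESeq2 and 0 by limma-voom). At 30 °C the PRM genes had 0 calls (edgeR, 1 at an unadjusted p under 0.05, and 0 by DESeq2 or limma-voom) and the BSC genes 1, lower. Of all genes, 14.1% were lower and 14.3% higher there. With heat in XH7, 3 of 8 PRM genes rose and 2 fell, the largest rise being in PRM5 (2.02 ± 0.36, adjusted p = 0.000682, edgeR). Of 4 BSC genes 2 rose, BSC5 by 5.67 ± 0.52 (adjusted p = 1.19e-05, edgeR). Of all genes, 31.3% rose and 32% fell.

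FLO11, whose protein resembles the start of BSC1, had 18.0 ± 5.64 CPM in Z100 and 32.3 ± 10.5 CPM in XH7 at 50 °C, and 19.7 ± 1.67 and 19.0 ± 0.228 CPM, in this order, at 30 °C. Its log2 fold change between strains was -0.84 ± 0.27 at 50 °C (adjusted p = 0.0754, edgeR, and under 0.05 in 6 of 20 alternatives, but -0.47 with an adjusted p of 0.301 without XH7 50 °C replicate 1) and 0.049 ± 0.27 at 30 °C (adjusted p = 0.904, edgeR), where its sign turned in 3 alternatives. Of FLO11 and 6 of its regulators, 0 of 7 were called at 50 °C (edgeR, 2 at an unadjusted p under 0.05, 1 by DESeq2 and 0 by limma-voom), against 8.96% of all genes. At 30 °C 3 were lower and 0 higher, against 14.1% and 14.3% of all genes. The 3 were the regulators MSS11 (-1.13 ± 0.21), NRG1 (-0.94 ± 0.20) and NRG2 (-0.76 ± 0.22).

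Over all genes, 4.94% were lower and 4.02% higher in Z100 at 50 °C, 14.1% lower and 14.3% higher in Z100 at 30 °C, and 32% fell and 31.3% rose with heat in XH7. Of 24 genes of the mating pheromone response, 4 were lower and 0 higher in Z100 at 50 °C, the largest being the mating adhesin gene FIG2 (-1.32 ± 0.22, adjusted p = 0.00987, edgeR, and 0.105 in the fit of the 50 °C libraries alone). Their median log2 fold change was -0.43, and 3 were lower and 0 higher at 30 °C. With heat in XH7 6 rose and 6 fell, the largest rise being in the MAP kinase gene FUS3 (3.58 ± 0.55, adjusted p = 0.000277, edgeR). Of 18 genes made up of GCN4 and amino acid synthesis genes, 13 fell and 2 rose with heat in XH7, with a median of -1.30. Among them the lysine synthesis gene LYS20 was at -2.59 ± 0.23 (adjusted p = 9.85e-06, edgeR) and the arginine synthesis gene ARG3 at 3.14 ± 0.50 (adjusted p = 0.000341, edgeR). Between strains 3 of the 18 were lower in Z100 at 50 °C, HIS4 of histidine synthesis by the most (-1.49 ± 0.20, adjusted p = 0.00464, edgeR, and 0.0625 in the fit of the 50 °C libraries alone). At 30 °C 6 were higher and 0 lower, with a median of 0.65.

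Of 13 glutathione genes, 2 were higher in Z100 at 50 °C and 0 lower, against 4.02% and 4.94% of all genes. At 30 °C 3 were higher and 1 lower, against 14.3% and 14.1% of all genes, and with heat in XH7 7 rose and 2 fell, against 31.3% and 32%. Of 8 genes of the mitochondrial genome, 4 passed the filter on low counts, none with a group mean above 0.204 CPM in these poly(A)-selected libraries. At 50 °C 0 of the 4 were called (edgeR, 0 at an unadjusted p under 0.05, and 0 by DESeq2 or limma-voom), and COX1 was called as higher both in Z100 at 30 °C and with heat in XH7, against XH7 libraries at 30 °C that were both at 0 for it.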

How the data were processed

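The authors deposited raw counts per gene for 10 poly(A)-selected libraries made with NEBNext Ultra, a kit that does not mark strand, with 51901045 to 81442848 counts each, and FPKM values of the same libraries (per the labels' protocols and the file headers). For the aligner and the counter, the name is not given in the sources used here. The gene positions in the deposited tables were checked against R64, where 6033 of 6059 equalled those of an annotated gene; 3 lines without content were not used. The transcript tables were not used. FPKM and counts together gave lengths of 987.9 to 989.8 bp for BSC1 and 2098.8 to 2102.9 bp for PRM7.

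Counts were tested with edgeR 4.0.16 (R 4.3.3, limma 3.58.1): TMM scaling, filterByExpr by group (6015 genes), a quasi-likelihood F test in 1 model of 4 group means, and Benjamini-Hochberg adjustment over all genes, called under 0.05. Each SE was taken as the absolute log2 fold change over the root of its F value, and 95% intervals from it. Log2 CPM used a prior count of 2. The procedure was tested on simulated data. Sequences were read from the RefSeq R64 genome with Biopython 1.88 and compared with BLAST 2.17.0. The ratio at 50 °C was compared by an exact permutation test (scipy 1.17.1).

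The members, the gene lists and the tests were chosen with earlier results of these data known, the lists from general knowledge. Heat in XH7 was planned as a test of the pair and is given as a description, because it shares the XH7 libraries at 30 °C with that choice. Beside the members, the text names neighbours within 2 genes, up to 3 called genes of a list by size, the 5 genes most like each member by Pearson r, and genes that share sequence with them. Alternatives were RLE, upper quartile or library-size scaling, filters (none, at least 5 CPM in at least 2 libraries), DESeq2 1.42.0, limma-voom, fits of the compared groups, a replicate block, limma on log2(FPKM + 0.1), and leaving out each library; for genes other than the members they were added after the data were seen.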

Additional observations from a re-analysis of the deposited data

How the results depend on the processing

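Both genes kept their direction between strains at 50 °C in every alternative run. They also did so in the other comparisons, which share libraries at 30 °C with the choice of the genes and are descriptions. Without each library in turn, the log2 fold change between strains at 50 °C ran from -2.26 to -1.77 in BSC1, and the number of genes called ran from 146 to 607 at 50 °C and from 292 to 2223 at 30 °C. At 50 °C the count moved by over 1.5 times without Z100 50 °C replicate 1 (318) or 3 (146), XH7 50 °C replicate 1 (328), Z100 30 °C replicate 1 (304) or 3 (244), and XH7 30 °C replicate 1 (188) or 2 (186). At 30 °C it did so without Z100 30 °C replicate 1 (1139), 2 (1060) or 3 (924), and XH7 30 °C replicate 1 (552) or 2 (292). In fits of the compared groups alone, BSC1 and PRM7 were at -1.95 and -2.31 at 50 °C, where 4 genes were called (539 in the model of all groups), while 3155 were called at 30 °C (1709). DESeq2 called 1070 genes at 50 °C. Fewer libraries entered the fits of the compared groups and those without a library; otherwise the cause was not tested. With library size as the only scaling, heat in Z100 was at -2.86 in BSC1 and -3.24 in PRM7. That scaling shifted the median of all genes by -0.55 (heat in XH7), -0.63 (heat in Z100), -0.22 (strains at 50 °C) and -0.13 (strains at 30 °C), and upper quartile scaling by -0.13 and -0.18 in the heat comparisons. The share of calls that were higher was 31.4% for heat in XH7, 28.1% for heat in Z100 and 17.7% at 50 °C with library size only, and 33.9% at 50 °C with upper quartile scaling, against 49.4%, 48.3% and 44.9% with TMM. By Spearman's rho 1 of the 5 genes most like each member was shared with the Pearson list. FLO11 at 30 °C turned to -0.092 with library size only and -0.087 with limma on FPKM, and ran from -0.021 (without Z100 30 °C replicate 2) to 0.12 without each library. NAT1 at 50 °C ran from -0.23 to 0.13 without each library, above 0 without Z100 50 °C replicate 1 (0.037) and without XH7 50 °C replicate 2. With the replicate number as a block, 240 genes were called at 50 °C, BSC1 at -1.71 (adjusted p = 0.0352) and PRM7 at -2.07 (adjusted p = 0.0273), both from edgeR. Same-numbered libraries deviated with correlations of 0.635 and 0.529 between the strains at 50 °C, and from -0.182 to 0.145 between other groups. The labels give the numbers no meaning and only 2 pairs exist between the strains, so the numbers were not taken to pair the libraries. Deviations of the 2 XH7 libraries at 50 °C from their mean mirror each other, so the 2 high values are not independent. Libraries with different numbers were not compared. The numbers may pair the libraries at 50 °C, but these values cannot decide it.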
